A study of Homo sapiens with 12 samples.

Results

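The 32 genes described here make the sterols and fatty acids of the cell, regulate that synthesis or store its products. They were chosen by symbol, with no measured value in the rule but with earlier results of these data known. Their shares beside the background are therefore descriptions. Of the genes, 4 are regulators of the SREBP pathway, 7 belong to the mevalonate pathway and 11 to the sterol steps. The others are 1 sterol carrier, 8 genes of fatty acid synthesis and desaturation, and 1 lipid droplet coat protein. All 32 were found among the 61541 genes of the deposited table, and all passed the filter on low counts, as did 16768 genes in all. The smallest count behind any member was 35 reads, in STARD4.

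RNA was sequenced from 12 libraries labelled A549, a human lung adenocarcinoma line, in 4 groups of 3. The lone controls carried Cas9 and a non-targeting guide (gNTC1), and the lone knockouts were labelled as TYMS knockouts, TYMS being thymidylate synthase, which makes the thymidine nucleotide of DNA. The co-cultured controls and co-cultured knockouts carried the same genotypes and had been grown with other cells, which for the knockout were parental A549 cells according to the series design. All libraries were taken 14 days after transduction, with no other treatment, from cells kept in high-glucose medium with 10% fetal bovine serum. The column names give 1 guide per target, so a difference between knockout and control rests on a single guide. The partner of the co-cultured control, the mixing ratio and how the populations were separated before RNA extraction are not given in the sources used here. Nothing in the labels says that the replicates came from separate cultures, so p-values measure the spread between these libraries, which may be technical.

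SREBF1 and SREBF2 encode the SREBP transcription factors, which are made as membrane proteins of the endoplasmic reticulum. When membrane sterol is low, SCAP carries them to the Golgi, where proteases free the active part; when sterol is high, INSIG proteins hold SCAP back. SREBP-2 is best known for the genes of cholesterol synthesis and uptake and SREBP-1c for those of fatty acid synthesis. Active SREBP is regulated by cleavage, so a transcript level does not show its activity. Lung adenocarcinoma cells can make fatty acids from citrate through ACLY, ACACA and FASN even where serum lipid is supplied.

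The libraries held 14921371 to 35723762 assigned reads, and values are given as CPM, the reads of a gene relative to the TMM-scaled size of its library. TYMS, the targeted gene, stood at 90.3, 101 and 95.2 CPM in the lone controls, 90.5, 94.2 and 95.7 CPM in the co-cultured controls, 20.3, 21.0 and 21.4 CPM in the lone knockouts and 11.4, 11.0 and 10.7 CPM in the co-cultured knockouts. It was lower in every knockout library than in every control library, with a log2 fold change of -2.19 (SE 0.11, adjusted p = 7.29e-09) between the lone groups, by edgeR's quasi-likelihood test with adjustment over all genes. The labelled line did not hold for the control libraries. A549 is known to lack CDKN2A and MTAP through a deletion on chromosome 9 and to carry a truncating change in SMARCA4. CDKN2A had 0 to 0.119 CPM in the 6 knockout libraries (4 reads in all) but 54.7 to 116 CPM in the 6 control libraries. MTAP had 0.302 to 0.647 CPM against 43.8 to 79.5 CPM, and SMARCA4 10.9 to 13.5 CPM against 159 to 202 CPM. EPCAM, an epithelial surface protein, had 0.149 to 0.913 CPM in knockouts and 94.4 to 119 CPM in controls. The libraries labelled as control therefore went against the line's known genotype, and an effect of the knockout and a difference between cell populations cannot be told apart in any comparison of knockout with control. Without the control libraries, the contrast of the co-cultured with the lone knockouts is the one that remains. The summed epithelial list held 7761 to 15054 CPM across the 12 libraries, but its members went both ways. Between the lone groups KRT8, KRT18 and EPCAM had lower means in the knockouts, and NQO1, AKR1C1 and AKR1B10 higher ones. The 3 fibroblast markers together held 10.1 to 24.1 CPM, nearly all of it COL1A1, and the 3 blood cell markers at most 0.434 CPM. The 3 endothelial markers together held 2.13 to 2.60 CPM in the lone controls and 0.0847 to 0.349 CPM in the lone knockouts.

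Most of the synthesis genes were lower in the libraries labelled knockout. Between the lone groups, 17 of the 32 members fell (53.1%) and 4 rose (12.5%) at an adjusted p under 0.05, where 28.6% of all tested genes were called lower and 28% higher. In either direction 21 members were called, or 65.6%, against a background of 56.6%. The median log2 fold change of the members was -0.72, beside 0.09 over all genes, and the members ranged from -2.38 (FASN) to 0.89 (SQLE). In 20 members every lone knockout was below every lone control and in 4 every one was above, while such separation was seen in 31.5% and 33.8% of all tested genes. In bulk RNA, fewer cells that transcribe a gene and less of its RNA per cell cannot be told apart.

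Between the co-cultured groups, which share no library with the lone groups, 19 members fell (59.4%) and 4 rose (12.5%). The background there was 25.3% lower and 24.1% higher, and 49.4% in either direction against 71.9% of members. The median of the members was -0.94, beside -0.02 over all genes. The groups separated without overlap in 19 members lower and 4 higher, beside 28.5% and 26.9% of all tested genes. In both contrasts 16 members fell: SREBF1, SREBF2, SCAP, INSIG1, ACAT2, MVK, MVD, FDPS, FDFT1, LSS, TM7SF2, EBP, DHCR7, FASN, SCD and ACSS2. SQLE, ACLY, FADS1 and PLIN2 rose in both. NSDHL was called lower only in the lone contrast, and CYP51A1, MSMO1 and ACACA only in the co-cultured one. The difference between those contrasts did not pass edgeR's test for any of these 4 genes. Correction for GC content used offsets that remove each library's trend with transcript GC. With it, the difference passed edgeR's test for ACACA (adjusted p = 0.0422) and MSMO1 (adjusted p = 0.048), in opposite directions. The corrected log2 fold changes of ACACA were -0.59 alone and -1.06 in co-culture. Those of MSMO1 were -1.27 alone and -0.69 in co-culture, so its fall was then larger between the lone groups.

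**Figure D1:**
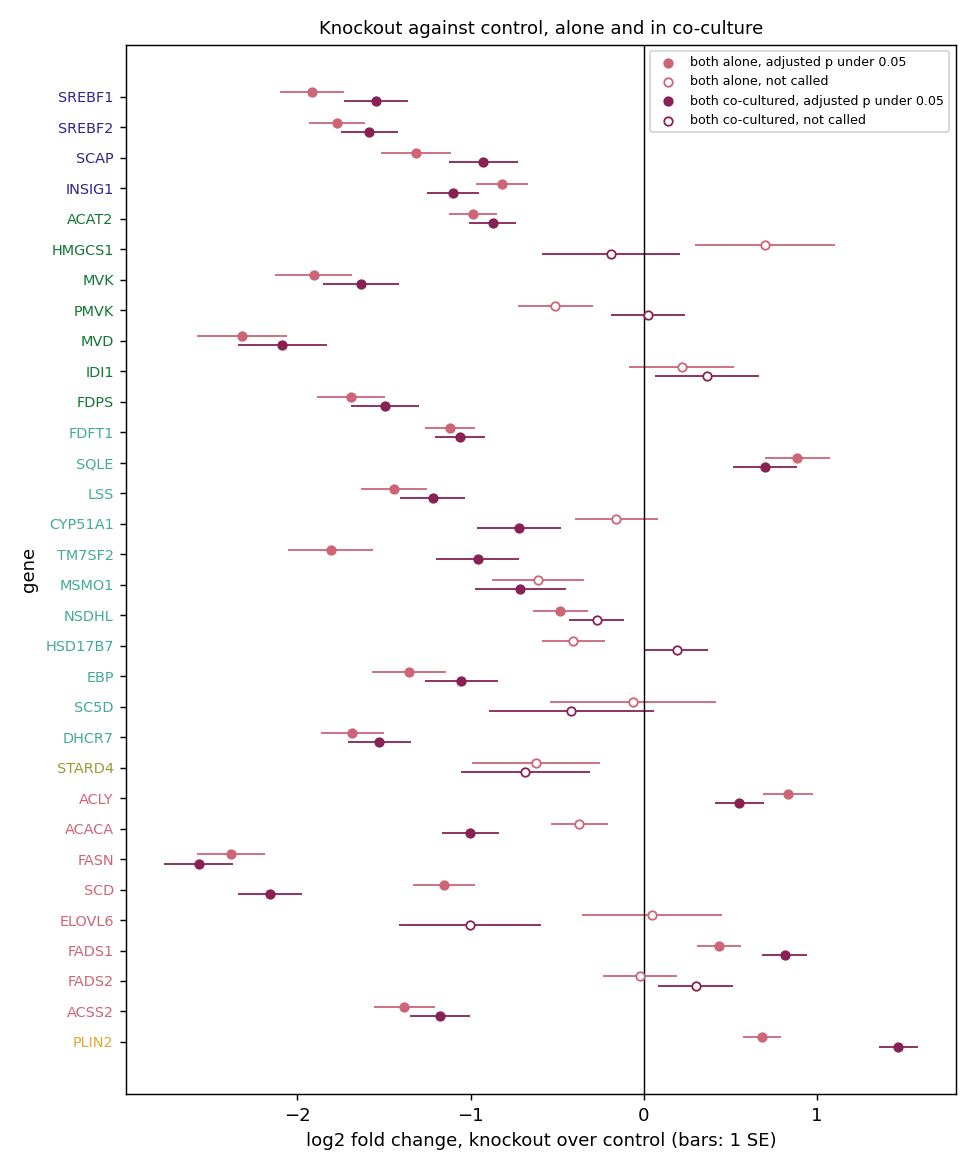
Log2 fold change of each of the 32 members in knockout over control libraries (x axis) with bars of 1 SE, for the lone groups and the co-cultured groups. Filled points have an adjusted p under 0.05 and open points do not, and the gene names on the y axis are coloured by role. Most filled points lie left of 0, with FASN near -2.4 and -2.6, and the genes filled on the right in both contrasts are SQLE, ACLY, FADS1 and PLIN2.

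The 4 regulators were lower in the knockout libraries in both contrasts. SREBF1 (ENSG00000072310, chr17:17810399-17837002, minus strand) stood at 509.6, 634 and 709 CPM in the lone controls, 493, 603 and 628 CPM in the co-cultured controls, 149.7, 164 and 178 CPM in the lone knockouts and 209, 230.3 and 152 CPM in the co-cultured knockouts. Its groups did not overlap, and the log2 fold change was -1.91 (SE 0.19, adjusted p = 2.56e-06) between the lone groups and -1.54 (SE 0.18, adjusted p = 1.69e-05) between the co-cultured groups by edgeR. SREBF2 (ENSG00000198911, chr22:41833079-41907308, plus strand), the sterol-directed factor, stood at 334, 471 and 480.0 CPM in the lone controls, 457, 436 and 447 CPM in the co-cultured controls, 116, 125 and 135 CPM in the lone knockouts and 144, 172 and 132 CPM in the co-cultured knockouts. Every knockout library was below every control library again, with log2 fold changes of -1.77 (SE 0.16, adjusted p = 1.47e-06) and -1.58 (SE 0.16, adjusted p = 4.37e-06) by edgeR. On the linear scale these were decreases of 3.77-fold and 3.41-fold between the lone groups, and with correction for GC content 2.18-fold and 2.58-fold.

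SCAP (ENSG00000114650, chr3:47413694-47477126, minus strand), the escort of both factors, had 231 ± 48.9 CPM (SD, n = 3) in the lone controls and 93.1 ± 11.4 CPM (SD, n = 3) in the lone knockouts. Its log2 fold changes were -1.31 (SE 0.20, adjusted p = 0.000139) alone and -0.93 (SE 0.20, adjusted p = 0.00199) in co-culture by edgeR, the lone value being -0.65 with correction for GC content. INSIG1 (ENSG00000186480, chr7:155297776-155310235, plus strand), the sterol-sensing retention factor and itself a classic SREBP target, stood at 66.9, 62.5 and 60.3 CPM in the lone controls, 69.0, 87.1 and 67.3 CPM in the co-cultured controls, 37.0, 33.9 and 36.6 CPM in the lone knockouts and 31.3, 31.3 and 41.7 CPM in the co-cultured knockouts. Both sets of knockouts lay below both sets of controls, with log2 fold changes of -0.82 (SE 0.15, adjusted p = 0.000466) alone and -1.10 (SE 0.15, adjusted p = 4.93e-05) in co-culture by edgeR. None of the 4 regulators was called with co-culture in the knockout: the log2 differences were 0.27 for SREBF1, 0.25 for SREBF2, 0.18 for SCAP and -0.04 for INSIG1, with edgeR adjusted p-values of 0.337, 0.307, 0.566 and 0.868. The signs for SCAP and INSIG1 flipped under correction for GC content, and that for INSIG1 also under DESeq2's size factors.

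**Figure D2:**
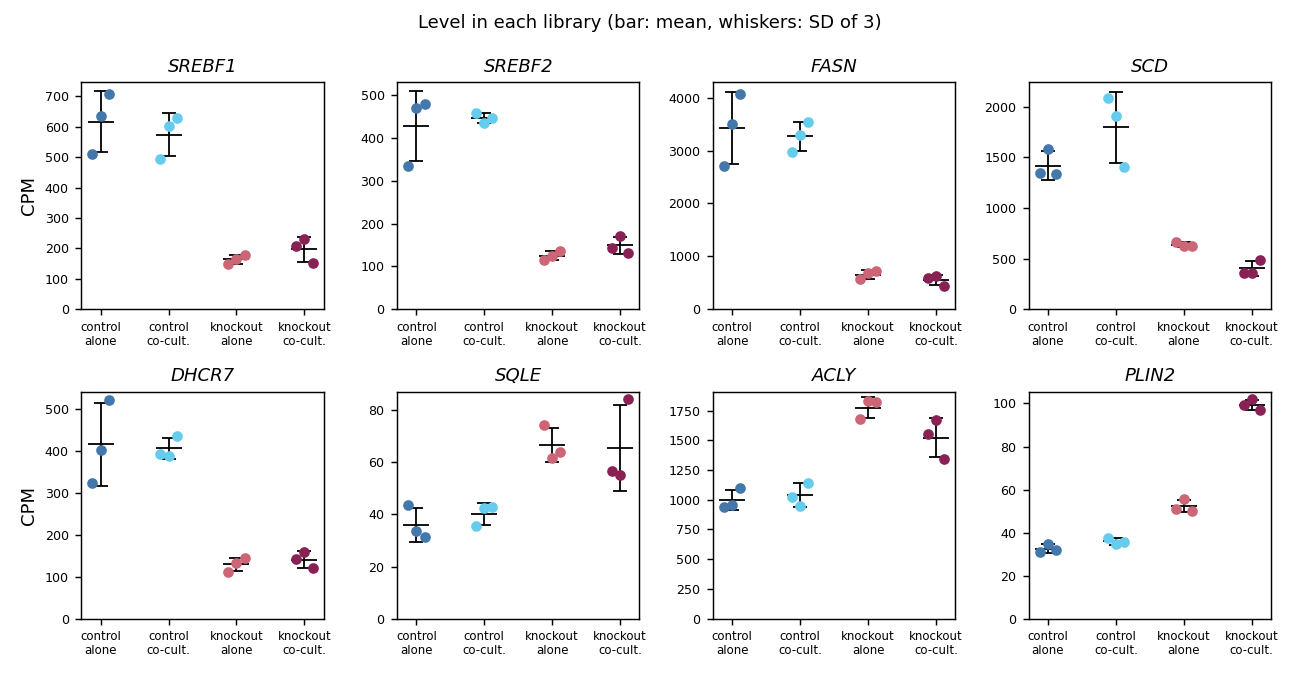
Level in CPM in each of the 12 libraries (points, linear y axis from 0) for 8 members, one panel each, with the mean (bar) and SD (whiskers) of each group of 3. SREBF1, SREBF2 and FASN drop from the control to the knockout groups with no overlap, and PLIN2 is highest in the co-cultured knockouts at 97.2 to 102 CPM.

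As most members moved in 1 direction, the promoters of the members were searched for the textbook binding letters. RefSeq promoter sequences on GRCh38.p14, from 250 bases before to 50 after the start, were matched for 28 of the 32 members, and ACAT2, FDFT1, SQLE and FASN had no entry. The sterol regulatory element was searched as TCACNCCAC and the NF-Y box as CCAAT, each on both strands, where ATTGG is the box on the opposite strand, and the motifs share no overlap in the stretches shown. SREBF2 was the one member of 28 with the sterol element, which 1.15% of the 27305 promoters held. The CCAAT box was found in 18 of 28 members (64.3%), beside 35.7% of all promoters. By role, it was in 8 of 9 sterol genes and 3 of 7 lipogenesis genes. The stretches below are those around the matches in SREBF2, MVD, DHCR7 and SCD. These are members called lower in both contrasts with 2 or more matches before the start. Stretches with more than a few bases in exons of protein-coding genes were left out. MVK, FDPS and EBP, also lower in both contrasts, held 5, 3 and 3 boxes in the whole window but fell outside these limits. The box was not particular to members that fell. ACLY, which rose in both contrasts, held 2 boxes, and FADS1 and PLIN2, which also rose, held none. HMGCS1 and STARD4, not called before correction for GC content, held 2 each. Matched letters are in capitals and each stretch reads 5′ to 3′ on the gene's strand.
SREBF2, chr22:41832960-41833015, plus strand, -145 to -90 from the start: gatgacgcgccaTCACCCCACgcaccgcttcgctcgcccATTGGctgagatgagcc
MVD, chr16:88663160-88663262, minus strand, -171 to -69 from the start: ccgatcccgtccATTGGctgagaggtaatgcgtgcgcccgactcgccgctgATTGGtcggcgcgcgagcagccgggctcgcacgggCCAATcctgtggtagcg
DHCR7, chr11:71448425-71448499, minus strand, -106 to -32 from the start: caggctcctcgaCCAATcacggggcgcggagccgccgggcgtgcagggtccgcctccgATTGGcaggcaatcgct
SCD, chr10:100346992-100347063, plus strand, -241 to -170 from the start: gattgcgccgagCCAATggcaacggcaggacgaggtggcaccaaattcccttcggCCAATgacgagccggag
The element and the box of SREBF2 lie within 56 bases, and MVD holds 3 boxes within 103 bases. Positions are relative to the RefSeq start, which can differ from the GENCODE span given for a gene. The DHCR7 stretch lies inside that gene's GENCODE span. Exons of protein-coding genes cover 11 bases of the DHCR7 stretch and 2 of the MVD stretch. SREBF1, SCAP and PLIN2 held neither motif in this window, and a match is a description of the letters, not evidence of binding.

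In the mevalonate pathway, 4 of 7 genes fell in both contrasts and none was called higher before correction for GC content. MVD (ENSG00000167508, chr16:88651935-88663161, minus strand), which decarboxylates mevalonate diphosphate, stood at 222, 263 and 354 CPM in the lone controls, 192, 256 and 317 CPM in the co-cultured controls, 42.7, 55.7 and 70.0 CPM in the lone knockouts and 59.6, 74.5 and 45.8 CPM in the co-cultured knockouts. Its decrease was the largest of the 7, with log2 fold changes of -2.32 (SE 0.26, adjusted p = 9.32e-06) alone and -2.09 (SE 0.26, adjusted p = 2.36e-05) in co-culture by edgeR, and no knockout library reached a control library. With correction for GC content the lone value was -1.51. MVK, mevalonate kinase, went from 92.2 to 24.7 CPM between the lone groups, a log2 fold change of -1.91 (SE 0.22, adjusted p = 1.29e-05) by edgeR, or -1.29 with correction for GC content. FDPS (ENSG00000160752, chr1:155308748-155320666, plus strand), which makes farnesyl diphosphate, stood at 263, 319 and 425 CPM in the lone controls, 357, 347 and 418 CPM in the co-cultured controls, 89.9, 104 and 118 CPM in the lone knockouts and 129, 157 and 112 CPM in the co-cultured knockouts. No knockout library reached a control library. FDPS fell by 3.22-fold between the lone groups, a log2 fold change of -1.69 (SE 0.20, adjusted p = 1.2e-05), and -1.49 (SE 0.19, adjusted p = 3.56e-05) in co-culture by edgeR. ACAT2, the cytosolic thiolase that starts the pathway, changed by -0.99 (SE 0.14, adjusted p = 6.01e-05) and -0.87 (SE 0.14, adjusted p = 0.000166) on the log2 scale by edgeR.

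The remaining 3 were not called in any contrast before correction for GC content. HMGCS1 (ENSG00000112972, chr5:43289395-43313512, minus strand), HMG-CoA synthase, stood at 28.9, 19.5 and 16.6 CPM in the lone controls, 29.5, 30.1 and 24.7 CPM in the co-cultured controls, 48.0, 34.2 and 23.2 CPM in the lone knockouts and 19.4, 11.4 and 43.1 CPM in the co-cultured knockouts. Its replicates spread widely and the groups overlapped. IDI1, the isopentenyl diphosphate isomerase, had group means of 20.3, 24.8, 23.6 and 32.01 CPM in the same order, and PMVK, phosphomevalonate kinase, 79.1, 68.0, 55.6 and 69.2 CPM. HMGCS1 and IDI1 thus gave values that did not follow MVD, MVK and FDPS, although all are counted among the sterol-regulated genes of the pathway.

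Of the 11 sterol genes, 6 fell and 1 rose between the lone groups, and 7 fell and 1 rose between the co-cultured groups. DHCR7 (ENSG00000172893, chr11:71428193-71452868, minus strand), which performs the last reduction to cholesterol, stood at 325, 403 and 522 CPM in the lone controls, 394, 389.7 and 436 CPM in the co-cultured controls, 113, 132 and 145 CPM in the lone knockouts and 143, 159 and 120.5 CPM in the co-cultured knockouts. All 6 knockout libraries were below all 6 control libraries, and the log2 fold changes were -1.68 (SE 0.18, adjusted p = 6.91e-06) and -1.53 (SE 0.18, adjusted p = 1.68e-05) by edgeR. TM7SF2, a sterol C14 reductase, fell from 129.9 to 37.2 CPM alone, a log2 fold change of -1.81 (SE 0.25, adjusted p = 4.77e-05), and had -0.96 (SE 0.24, adjusted p = 0.00494) in co-culture by edgeR, the lone value being -1.04 with correction for GC content. LSS, which closes the sterol rings, went from 231 to 85.2 CPM, EBP, a sterol isomerase, from 78.0 to 30.5 CPM, and FDFT1, squalene synthase, from 358 to 165 CPM. These 3 decreases had log2 fold changes of -1.44, -1.36 and -1.12, with edgeR adjusted p-values of 3.52e-05, 0.000159 and 3.2e-05. In co-culture they were -1.22, -1.05 and -1.06, with edgeR adjusted p-values of 0.000147, 0.0011 and 5.43e-05.

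SQLE, squalene epoxidase and a rate-limiting step of the branch, went the other way. It (ENSG00000104549, chr8:124998497-125022283, plus strand) stood at 43.5, 33.6 and 31.2 CPM in the lone controls, 35.4, 42.4 and 42.8 CPM in the co-cultured controls, 74.2, 61.7 and 64.1 CPM in the lone knockouts and 56.8, 55.0 and 84.3 CPM in the co-cultured knockouts. Every knockout library was above every control library, by 0.89 (SE 0.19, adjusted p = 0.00137) alone and 0.70 (SE 0.19, adjusted p = 0.00689) in co-culture on the log2 scale by edgeR. With correction for GC content the lone rise was smaller, at 0.36, and the co-cultured one was 0.76. Each of these 2 calls was kept in 22 of 23 alternative settings. SQLE acts between FDFT1 and LSS, both of which fell, so neighbouring steps moved in opposite directions at the transcript level.

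The other sterol genes moved less before correction for GC content. NSDHL, a C4 decarboxylase, went from 73.8 to 52.9 CPM between the lone groups, with a log2 fold change of -0.48 (SE 0.16, adjusted p = 0.0211) by edgeR. CYP51A1, lanosterol demethylase, and MSMO1, the C4 methyl oxidase, were called between the co-cultured groups, at -0.72 (SE 0.24, adjusted p = 0.0242) and -0.71 (SE 0.26, adjusted p = 0.0378) by edgeR. Each of those 3 calls was lost under 4 or more of 23 alternative settings. With correction for GC content, CYP51A1 and MSMO1 were also called between the lone groups, at log2 fold changes of -0.78 and -1.27. SC5D, a sterol desaturase, had 1.73 to 9.48 CPM over all libraries, and STARD4, a carrier of cholesterol between membranes, 1.64 to 7.31 CPM. Neither had a call by edgeR before correction for GC content, but with it both were called lower in both contrasts. The corrected log2 fold changes were -0.71 alone and -0.53 in co-culture for SC5D, and -1.29 and -0.67 for STARD4. SC5D overlapped between the groups in every contrast, and STARD4 overlapped between the lone groups but was lower in every co-cultured knockout than in every co-cultured control.

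The fatty acid genes held the largest uncorrected change and also 2 of the genes that rose. FASN (ENSG00000169710, chr17:82078333-82098332, minus strand), fatty acid synthase, stood at 2705, 3493 and 4068 CPM in the lone controls, 2981, 3291 and 3532 CPM in the co-cultured controls, 566, 686 and 716 CPM in the lone knockouts and 584, 632 and 437 CPM in the co-cultured knockouts. It was the member with the highest level per length in the lone controls, at 365 CPM per kb of exon, and fell to 70.1 CPM per kb in the lone knockouts. No knockout library came near a control library, with decreases of 5.22-fold alone and 5.93-fold in co-culture, or log2 fold changes of -2.38 (SE 0.20, adjusted p = 6.45e-07) and -2.57 (SE 0.20, adjusted p = 3.85e-07) by edgeR. With correction for GC content the decreases were 2.80-fold alone and 4.63-fold in co-culture, and the lone decrease of MVD, at 2.85-fold, was then the largest of the members. SCD (ENSG00000099194, chr10:100347124-100364834, plus strand), which puts the first double bond into saturated fatty acids, stood at 1343, 1581 and 1334 CPM in the lone controls, 2083, 1907 and 1401 CPM in the co-cultured controls, 666, 623 and 626 CPM in the lone knockouts and 361, 363 and 484 CPM in the co-cultured knockouts. Its 4 groups separated knockout from control without overlap, with log2 fold changes of -1.15 (SE 0.18, adjusted p = 0.00013) alone and -2.16 (SE 0.18, adjusted p = 7.99e-07) in co-culture by edgeR. ACSS2, which makes acetyl-CoA from acetate, fell from 80.8 to 31.0 CPM alone, a log2 fold change of -1.38 (SE 0.17, adjusted p = 2.55e-05), and had -1.18 (SE 0.17, adjusted p = 0.0001) in co-culture by edgeR.

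ACACA (ENSG00000278540, chr17:37084988-37406818, minus strand), acetyl-CoA carboxylase and the committed step before FASN, stood at 169, 171 and 151 CPM in the lone controls, 187, 161 and 150.2 CPM in the co-cultured controls, 141, 129 and 109.6 CPM in the lone knockouts and 80.5, 66.8 and 101 CPM in the co-cultured knockouts. Every lone knockout lay below every lone control and every co-cultured knockout below every other library. The lone difference was -0.37 (SE 0.16, adjusted p = 0.0699) on the log2 scale, which missed the threshold, and the co-cultured one -1.0004 (SE 0.17, adjusted p = 0.000264), both by edgeR.

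ACLY (ENSG00000131473, chr17:41866908-41930542, minus strand), which releases acetyl-CoA from citrate for both pathways, stood at 935, 959 and 1096 CPM in the lone controls, 1024, 949 and 1144 CPM in the co-cultured controls, 1678, 1830.5 and 1819 CPM in the lone knockouts and 1549, 1671 and 1345 CPM in the co-cultured knockouts. It rose where FASN fell, with log2 fold changes of 0.83 (SE 0.14, adjusted p = 0.00029) alone and 0.55 (SE 0.14, adjusted p = 0.00586) in co-culture by edgeR and no overlap of the groups. Per length it was the highest member in the lone knockouts, at 340 CPM per kb against 119 for SCD and 70.1 for FASN, whereas in the lone controls the order was FASN, SCD and ACLY, the last 2 at 265 and 191 CPM per kb. FADS1 (ENSG00000149485, chr11:61799625-61829318, minus strand), the delta-5 desaturase of polyunsaturated fatty acids, stood at 251, 229 and 242 CPM in the lone controls, 202, 234 and 239 CPM in the co-cultured controls, 349, 306 and 322 CPM in the lone knockouts and 409, 351 and 426 CPM in the co-cultured knockouts. It was above the controls in every knockout library, by 0.44 (SE 0.13, adjusted p = 0.0117) alone and 0.81 (SE 0.13, adjusted p = 0.000186) in co-culture on the log2 scale by edgeR. The call of ACLY in co-culture was kept in 22 of 23 alternative settings and that of FADS1 alone in 20 of 23. FADS2, the delta-6 desaturase whose exons overlap those of FADS1 on the opposite strand, had group means of 500.4, 401, 493 and 494 CPM in the same order of groups. ELOVL6, an elongase of saturated fatty acids, had 4.14 to 21.1 CPM across the libraries. Neither FADS2 nor ELOVL6 had a call before correction for GC content.

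PLIN2 (ENSG00000147872, chr9:19108375-19149290, minus strand), which coats lipid droplets and is commonly read as a sign of stored neutral lipid, stood at 30.9, 34.7 and 32.03 CPM in the lone controls, 37.5, 34.6 and 35.5 CPM in the co-cultured controls, 51.1, 55.5 and 50.1 CPM in the lone knockouts and 99.3, 102 and 97.2 CPM in the co-cultured knockouts. The 3 replicates of each group lay close together, both knockout groups were above both control groups, and the co-cultured knockouts were the highest. The log2 fold change was 0.68 (SE 0.11, adjusted p = 0.000197) between the lone groups and 1.47 (SE 0.11, adjusted p = 2.75e-07) between the co-cultured groups by edgeR.

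Over the 32 members, the median log2 level relative to the lone controls was -0.08 to 0.19 in the 6 control libraries, -0.86 to -0.81 in the lone knockouts and -0.94 to -0.64 in the co-cultured knockouts. The 6 knockout libraries thus all lay below the 6 control libraries on this measure.

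**Figure D3:**
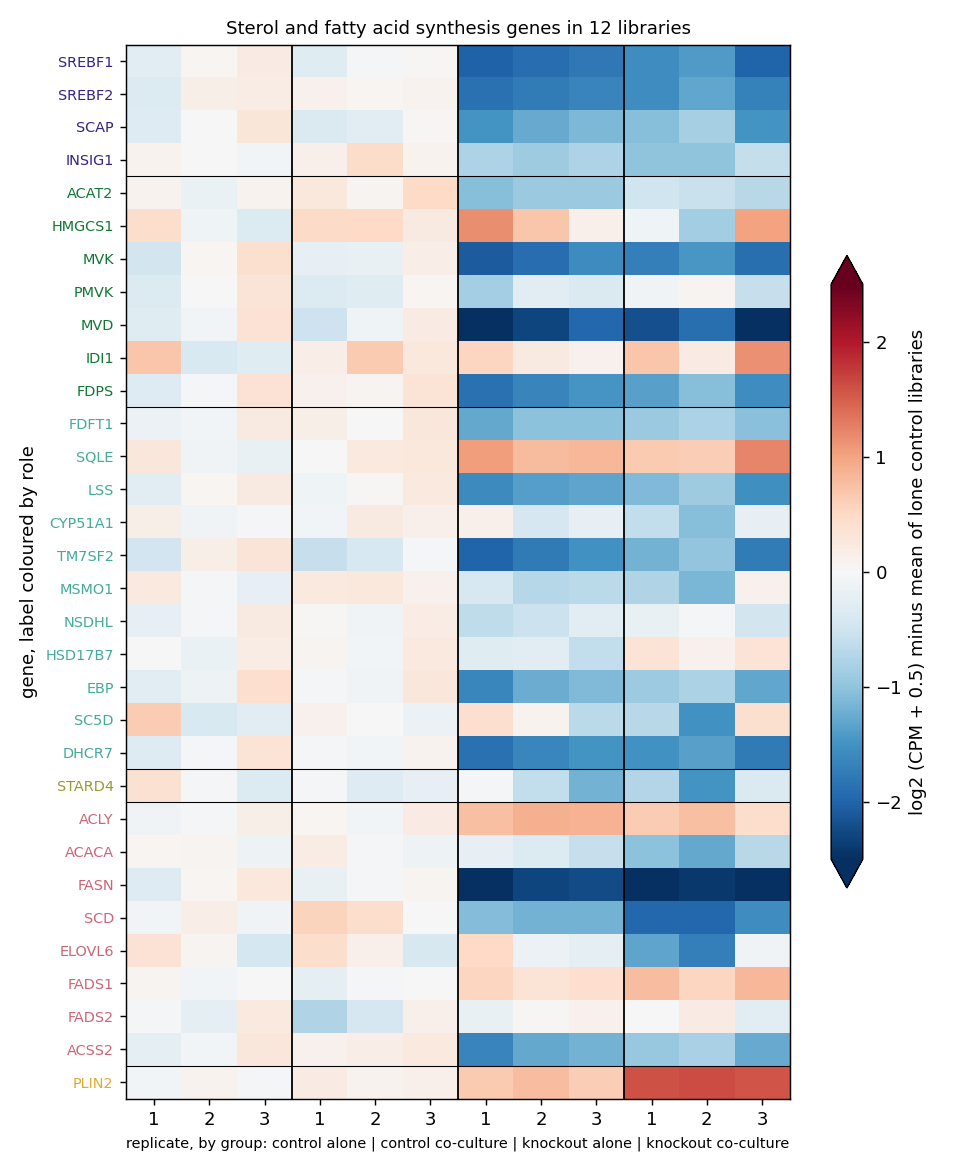
Log2 level of each member in each of the 12 libraries, as log2 of CPM plus 0.5, relative to its mean over the lone controls, with genes in rows grouped by role and libraries in columns grouped by genotype and culture. Blue rows in the 6 knockout columns mark the 16 members that fell in both contrasts, SQLE, ACLY, FADS1 and PLIN2 are red in all 6 knockout columns, and the third co-cultured knockout differs in colour from the other 2 in genes such as HMGCS1, IDI1 and ELOVL6.

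The contrast of the co-cultured with the lone knockouts asked what co-culture changed in the knockout. It sets no control library against a knockout, but its filter, scaling and spread came from the fit on all 12 libraries. Of the 32 members, 4 were called (12.5%), 2 higher and 2 lower, where 11.4% of all tested genes were called, 5.97% higher and 5.4% lower. The share of members was thus close to the background, and their median log2 fold change was 0.18 beside 0.01 over all genes. The groups did not overlap in 7 members, 4 higher and 3 lower, where such separation was seen in 16.7% and 14.9% of all tested genes. Of the 17 members lower in the lone knockouts, NSDHL was the 1 whose co-cultured groups overlapped between knockout and control and had no call.

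PLIN2 rose 1.9-fold with co-culture, a log2 difference of 0.93 (SE 0.11, adjusted p = 0.00028) by edgeR, from 50.1 to 55.5 CPM in the lone knockouts to 97.2 to 102 CPM. It moved away from the control level, and it was called in all 23 alternative settings, with adjusted p-values from 1.37e-12 to 0.048. HSD17B7 (ENSG00000132196, chr1:162790702-162812817, plus strand), a sterol C3 ketone reductase, stood at 9.86, 10.2 and 7.85 CPM in the lone and 15.7, 13.3 and 15.7 CPM in the co-cultured knockouts. Those groups did not overlap, with a log2 difference of 0.68 (SE 0.18, adjusted p = 0.033) by edgeR. SCD fell further in co-culture, from 638 to 403 CPM, a log2 difference of -0.67 (SE 0.18, adjusted p = 0.0315), and ACACA from 127 to 82.9 CPM, a log2 difference of -0.61 (SE 0.17, adjusted p = 0.0343), both by edgeR. Over the 23 alternative settings HSD17B7 was called in 14, SCD in 13 and ACACA in 12. Fitted on the 6 knockout libraries alone, PLIN2 was the 1 member called, so the calls of HSD17B7, SCD and ACACA rest on a spread estimated partly in the control libraries.

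The third co-cultured knockout stood apart from the other 2 in several members. HMGCS1 had 19.4, 11.4 and 43.1 CPM in the 3 co-cultured knockouts, MSMO1 18.8, 14.3 and 34.8 CPM and ELOVL6 5.65, 4.14 and 13.9 CPM. The third library was the highest of its group in each, while in SREBF1, SCAP, LSS and MVD it was the lowest. Without that library, 11 members were called with co-culture, where 33.4% of all genes then tested were called. Its deviation from its group went with GC content at a Spearman correlation across genes of -0.857, against 0.484 and 0.846 for the other 2. Deviations from the mean of 3 libraries balance, so opposite signs are built in and do not set this library apart. Every other group held both signs too, such as the lone knockouts at -0.688, 0.145 and 0.687. The calls after correction for GC content are given with the GC values of the members.

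No member passed the test for co-culture in the controls. By edgeR 0 of 32 members and 0% of all tested genes were called; at an unadjusted p under 0.05 there were 0 members and 540 genes, and DESeq2 called 0 members. INSIG1 was the 1 member whose groups did not overlap, being higher in co-culture, where 4.48% of all tested genes separated upward and 2.9% downward. The log2 differences of the regulators were -0.10 for SREBF1, 0.06 for SREBF2, -0.21 for SCAP and 0.24 for INSIG1. The difference between the effect of co-culture in knockout and in control was itself tested, and 1 member of 32 (3.13%) was called, against 1.8% of all genes, 1.51% higher and 0.286% lower. That member was PLIN2, with a log2 difference of 0.79 (SE 0.16, adjusted p = 0.0222) by edgeR: co-culture moved it by 0.93 in the knockout and by 0.14 in the control. Its adjusted p ran from 0.000184 to 0.58 over 22 alternative settings and passed the threshold in 11 of them.

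Of 44 other genes of sterol, isoprenoid, fatty acid and droplet metabolism, 26 were called between the lone groups, 11 higher and 15 lower, beside the background of 28% and 28.6%. HILPDA, a droplet-associated inhibitor of lipolysis, fell with a log2 fold change of -1.81 (SE 0.18, adjusted p = 3.71e-06) and SLC25A1, the mitochondrial citrate carrier that feeds ACLY, with -1.67 (SE 0.23, adjusted p = 5.18e-05), both by edgeR; with correction for GC content SLC25A1 had -0.73. The highest was ABCA1, which exports cholesterol and is a target of the sterol-activated LXR receptors, at 3.72, 1.23 and 1.2 CPM in the lone controls and 64.0, 45.1 and 38.3 CPM in the lone knockouts. Every knockout library was far above every control, and its log2 fold change was 4.59 (SE 0.53, adjusted p = 1.26e-05) by edgeR, or 5.32 without the first lone control. NPC1, which moves cholesterol out of lysosomes, rose by 2.39 (SE 0.12, adjusted p = 5.94e-09), and LPIN1, a phosphatidate phosphatase, by 2.34 (SE 0.23, adjusted p = 3.07e-06), both by edgeR. The 11 genes of the list grouped as cholesterol handling, ABCA1 and NPC1 among them, did not move together. By edgeR 4 were called higher and 4 lower, the lower ones being NR1H2, NR1H3, MYLIP and STARD3, and ABCG1 was not called.

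With co-culture in the knockout, 5 of the 44 were called (11.4%), 3 higher and 2 lower, the same share as the 11.4% of all tested genes. G0S2, an inhibitor of the lipase ATGL, went from 1.02, 1.89 and 1.83 CPM to 5.43, 7.22 and 4.85 CPM. The groups did not overlap, with a log2 difference of 1.90 (SE 0.32, adjusted p = 0.00323) by edgeR. HILPDA rose by 0.88 (SE 0.18, adjusted p = 0.00975) and MID1IP1, an activator of acetyl-CoA carboxylase, by 0.78 (SE 0.17, adjusted p = 0.0122), both by edgeR. LBR, a sterol reductase of the nuclear membrane, and LPIN1 fell, with log2 differences of -1.44 (SE 0.35, adjusted p = 0.022) and -0.94 (SE 0.22, adjusted p = 0.0186) by edgeR, that of LBR being -2.06 without the third co-cultured knockout. G0S2 was called in all 23 alternative settings, HILPDA in 22, MID1IP1 in 19, and LBR and LPIN1 in 16 each. Of the 9 glycerolipid and droplet genes of this list, 3 were called, G0S2 and HILPDA higher and LPIN1 lower. Between the co-cultured groups, 17 of the 44 were called (38.6%), 7 higher and 10 lower, below the 49.4% of all tested genes.

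The members that fell were richer in GC than the others, with overlapping ranges. The 17 called lower between the lone groups had transcript GC contents of 47.1% to 65.3% with a median of 57.1%, and the other 15 had 37.4% to 59.5% with a median of 42.7%. Across the 32 members, the lone-group fold change went with GC content at a Spearman correlation of -0.67, beside -0.40 across 16505 genes, all points coming from the same libraries. Between the co-cultured groups these were -0.46 and -0.11, and for co-culture in the knockout 0.32 and 0.45. Single libraries deviated from their own group along GC content too, at Spearman correlations across genes from -0.857 to 0.846. As an alternative, each library's trend with GC content was removed, fitted on its deviation from the mean of all 12 libraries. This also removes any trend with GC content between the groups, whatever its source, and not only the trend within them. The correlation across members was then -0.23 for the lone groups and -0.38 for the co-cultured ones. For co-culture in the knockout it changed sign, from 0.32 to -0.38, while across all genes it was -0.01.

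With that correction, all 21 members called between the lone groups kept their call and 28 were called, 23 lower and 5 higher, beside a background of 63.6%, 31.8% lower and 31.8% higher. The members gained were HSD17B7, MSMO1, STARD4, CYP51A1, SC5D and ACACA, all lower, and FADS2, higher. Between the co-cultured groups 30 were called, 23 lower and 7 higher, beside 63.3%, 30.9% lower and 32.5% higher. Gained there were ELOVL6, STARD4, NSDHL and SC5D, all lower, and PMVK, FADS2 and IDI1, all higher. For co-culture in the knockout the correction changed more: 12 members were called (37.5%), beside 30.5% of all genes, 16% higher and 14.5% lower. Of these, 7 rose: HSD17B7, PLIN2, IDI1, MSMO1, ACAT2, SQLE and TM7SF2, with log2 differences from 0.26 to 1.07. The 5 that fell were ELOVL6, ACACA, SCD, FASN and ACLY, all of fatty acid synthesis, with log2 differences from -0.61 to -0.35. The 7 that rose held 6 genes of the mevalonate and sterol groups and PLIN2. Most genes of those 2 groups were not called, such as MVD at -0.10, DHCR7 at -0.09 and HMGCS1 at -0.08. Among the uncalled fatty acid genes, ACSS2 had 0.25, FADS1 0.13 and FADS2 -0.21. Across the members these corrected differences still went with GC content, at a Spearman correlation of -0.38, and the split between the groups was not tested. In the difference between the effects of co-culture, 7 members were called with the correction, 3 higher and 4 lower, beside 9.42% of all genes, 5.21% higher and 4.21% lower.

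**Figure D4:**
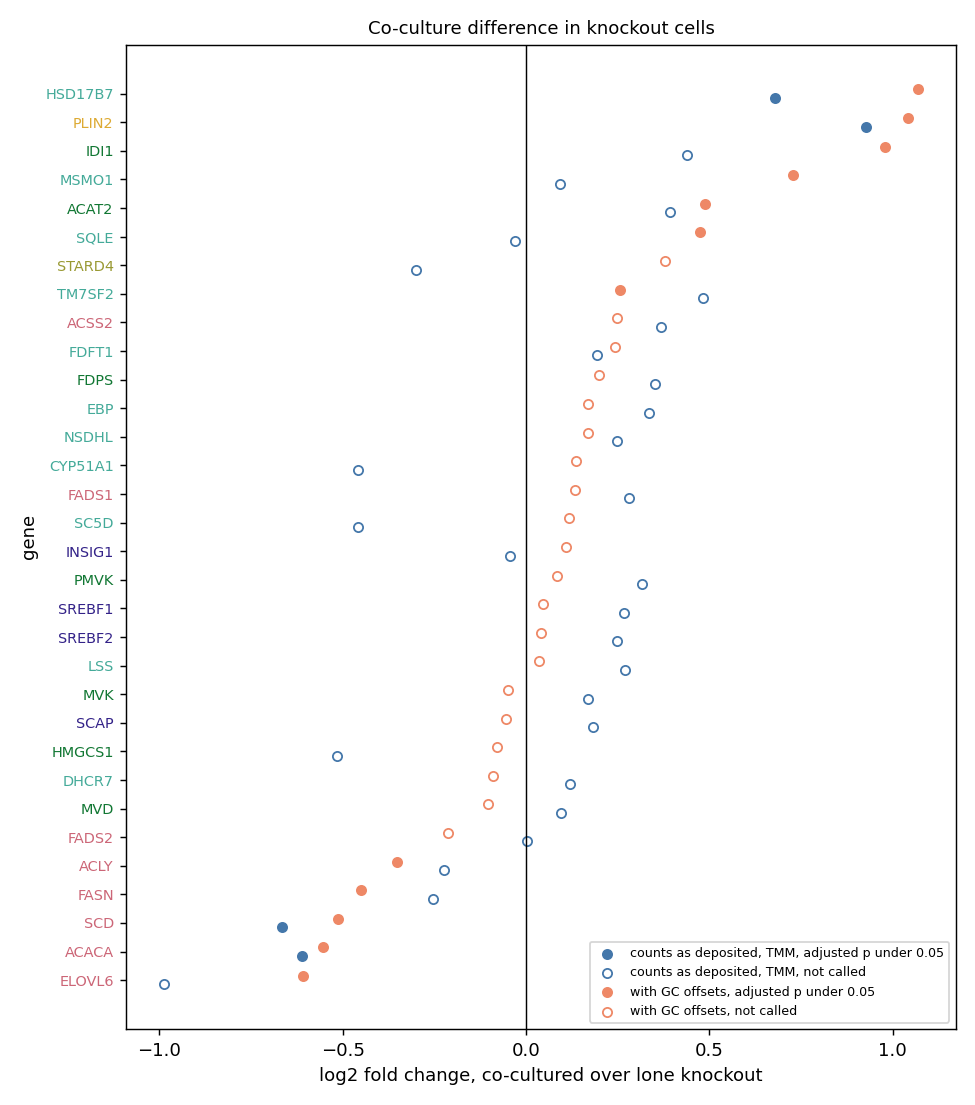
Log2 fold change of each of the 32 members in co-cultured over lone knockouts (x axis), from the counts as deposited and with GC offsets, genes on the y axis ordered by the corrected value. Filled points have an adjusted p under 0.05: 4 of the uncorrected and 12 of the corrected points, with PLIN2 and HSD17B7 near 1 at the upper end after correction.

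**Figure D5:**
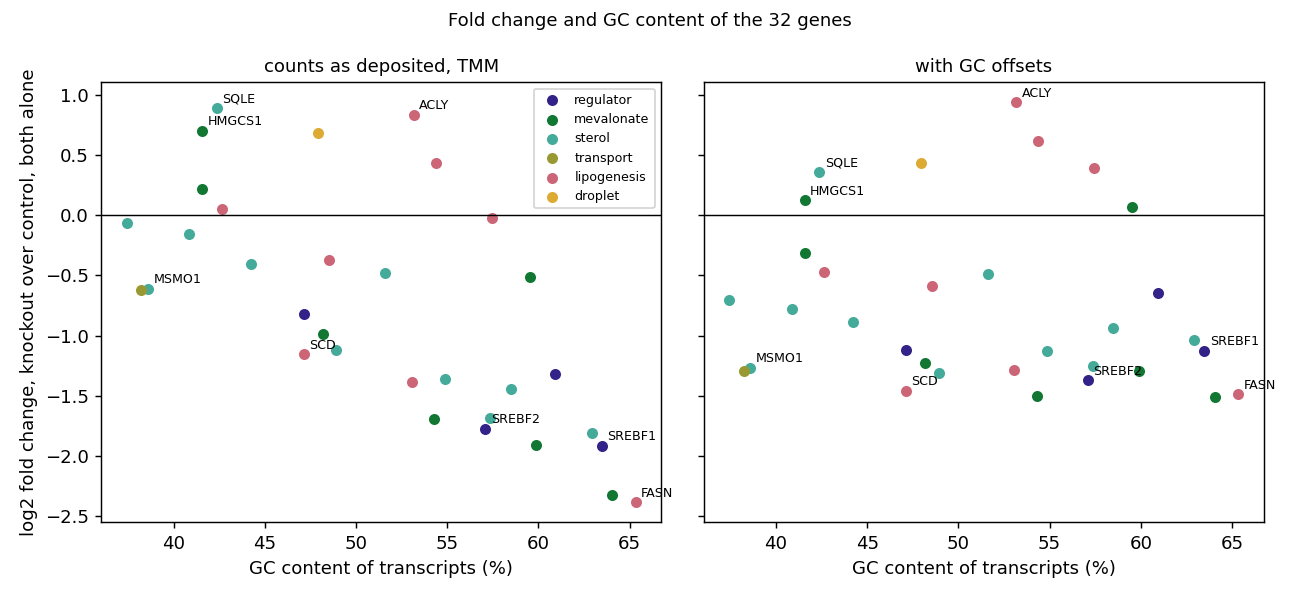
Log2 fold change of the 32 members between the lone groups (y axis) against the GC content of their transcripts in percent (x axis), coloured by role, without (left) and with (right) GC offsets. On the left the GC-rich members, such as FASN at 65.3%, lie lowest, with a Spearman correlation of -0.67, and on the right the correlation is -0.23.

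Some values rest on shared sequence. FADS1 and FADS2, MVK and MMAB, ACAT2 and TCP1, SREBF1 and RAI1, and SREBF2 and SREBF2-AS1 overlap on opposite strands, and the strand setting of the counting is not given in the sources used here. TM7SF2 shares exons with VPS51 and FADS2 with FEN1 on the same strand. FDPS has 8 named pseudogenes, CYP51A1 3, HSD17B7 2, and SCD and FADS2 1 each, so the counts of these genes are less certain.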

How the data were processed

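The authors deposited 1 table of raw read counts per Ensembl gene for the 12 libraries. The submitters' processing notes name FastQC, STAR 2.7.9a, featureCounts, R 4.2.1, DESeq2 1.36.0 and the build GRCh38 (hg38), with no role or order; annotation and strand setting are not given in the sources used here. Of 61541 genes, 61369 had a symbol in the gene name table. Positions, exon lengths and GC came from GENCODE 29 (GRCh38).

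Counts were tested with edgeR 4.0.16 in R 4.3.3: TMM scaling, filterByExpr, 4 group means over all 12 libraries, robust quasi-likelihood F-tests and Benjamini-Hochberg adjustment over 16768 genes, called at 0.05. Log2 fold changes are edgeR's, and the biological coefficient of variation was 22.1%. The tests were run on simulated independent counts without a GC trend, which cannot show how they behave under the trend in these libraries. Replicates differed beyond counting noise (chi-square per gene 8.79 to 134). Fold changes are given for called members, for the 4 regulators in each contrast, for the 3 highest and 3 lowest called genes of the list of 44 in each of 2 contrasts, and for TYMS; 1 gene that this rule names is not reported here. HMGCS1 and other uncalled members are given as levels, and ACACA's uncalled lone difference was chosen after its value was seen. Members and lists were chosen with earlier results of these data known. Alternatives were DESeq2 1.42.0, other size factors, other filters, a minimum change of 1.5-fold, GC offsets (lowess span 0.3), only the groups compared, a replicate block and leaving out each library.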

Additional observations from a re-analysis of the deposited data

Results flagged for a closer look

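In 3 genes the effect of co-culture differed between the knockout and the control by the test of the difference itself. PLIN2, the droplet coat protein, had a log2 difference of 0.79 (edgeR adjusted p = 0.0222), with all 3 co-cultured knockouts above all other libraries. G0S2, the lipase inhibitor of the longer list, had 1.95 (edgeR adjusted p = 0.0441) on low levels of 1.02 to 7.22 CPM, and its call held in 11 of 22 alternative settings. TYMS, the targeted gene, had -0.89 (edgeR adjusted p = 0.0107): it was at 20.9 CPM in the lone and 11.0 CPM in the co-cultured knockouts, and at 95.4 and 93.4 CPM in the controls.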

How the results depend on the processing

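The members' knockout-against-control counts stayed within 1.5 times of their value under every alternative run. Their medians kept their sign: -0.99 with GC offsets, -0.57 with library size only and -0.89 to -0.70 leaving out 1 library for the lone groups, and -0.81 with GC offsets for the co-cultured groups. Members called with co-culture in the knockout were 12 with GC offsets, 1 with library size only, 1 at a minimum change of 1.5-fold, 1 with only the groups compared, and 1 to 11 leaving out 1 library, 11 being without the third co-cultured knockout; their median was 0.31 with no filter. Members called in the difference between the effects of co-culture were 2 with DESeq2, 7 with GC offsets, 0 with library size only, 0 at 1.5-fold, 3 with no filter and 0 to 6 leaving out 1 library (6 without the third co-cultured knockout); their median was 0.047 with library size only and 0.043 to 0.31 leaving out 1 library. The cause of these shifts was not tested.

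Whether the replicate numbers pair the samples could not be settled: same-numbered deviations correlated from -0.895 to 0.804, with 7 of 18 pairs over 0.1. Outside the co-cultured knockouts, replicates 1 and 3 correlated with their same-numbered partners at 0.41 to 0.80. With the co-cultured knockouts they correlated at -0.895 to -0.50. Deviations from the group means also followed GC content, so these correlations cannot decide it. With a replicate block, 1 member was called with co-culture in the knockout and 0 in the difference of effects; the block with GC offsets gave 10 and 3, and medians of -0.99 alone and -0.80 in co-culture.

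Signs that reversed were all in values not called. INSIG1 with co-culture in the knockout was 0.042 at 1 CPM or more, 0.0092 with DESeq2, 0.0088 with RLE factors, 0.11 with GC offsets, 0.079 with no filter, 0.10 with block and GC offsets, and -0.19 to 0.027 leaving out 1 library. With GC offsets, and with the block added, SCAP was -0.054 and -0.054 with co-culture in the knockout and -0.031 and -0.032 in the difference of effects, SREBF1 0.16 and 0.15 in the control and -0.11 and -0.11 in the difference, and SREBF2 -0.10 and -0.11 in the difference. With co-culture in the control, SREBF1 was -0.22 to 0.0043 leaving out 1 library, SREBF2 -0.090 to 0.15 and TYMS -0.069 to 0.0105, and TYMS was 0.032 with library size only.

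Over all genes, 1907 were called with co-culture in the knockout, but 3347 with DESeq2, 5114 with GC offsets, 293 at 1.5-fold, 3340 with no filter, 664 with only the groups compared, 1080 with the block and 4365 with block and GC offsets. For the difference of effects 301 became 877, 1580, 92 and 1342 in the first 4 of these settings, 179 with the block and 1022 with block and GC offsets. At 1.5-fold, 9485 became 5971 for the lone groups and 8276 became 4954 for the co-cultured ones, and with no filter 2 genes were called in the control. Library size alone moved the median of all genes from 0.09 to 0.24 in the lone contrast and from 0.01 to -0.11 in the difference, and gave 989 higher and 431 lower genes, not 1001 and 906, with co-culture in the knockout.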
